A study of Mus musculus with 12 samples.

Results

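The response of mouse liver to dexamethasone, a synthetic glucocorticoid, was measured across both gonadal states. For this, 6 libraries from livers given dexamethasone were set against 6 from livers given vehicle, with gonadal state as the second factor of an additive model. All 12 of the 12 libraries of the series entered, 6 from intact and 6 from ovariectomized females. The mice were wild-type C57BL/6 females without ovaries (ovariectomized) or with them (intact). They received PBS, the vehicle, or dexamethasone at 1 mg/kg, and livers were collected 6 h later, with 3 libraries in each of 4 groups: intact vehicle, intact dexamethasone, ovariectomized vehicle and ovariectomized dexamethasone. The labels and files used here do not give ages. They also do not state that the 3 libraries of a group came from separate animals. P-values therefore measure the spread between these libraries, which may be technical. Where levels are given below, each "liver" stands for a library and not for an animal known to be separate. Genes were measured by RNA-seq of total RNA and are given as the authors' log2 values, where 1 unit is a 2-fold change. Of 24033 gene symbols, the 12965 with a mean level of at least 4 were tested.

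Glucocorticoids enter the cell and bind the glucocorticoid receptor, a transcription factor held in the cytoplasm by chaperones, which then moves to the nucleus and acts at specific DNA elements or by contact with other transcription factors. In the liver the hormone is known for raising enzymes of amino acid breakdown and glucose output, for resetting clock genes, for working with interleukin signals on plasma proteins made in injury, and for lowering inflammatory and interferon genes. Its name comes from the supply of glucose from amino acids during fasting and stress.

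The libraries separated by treatment. Medians of all tested genes lay between 8.82 and 8.86 in the 12 libraries, and the first principal component, with 49.9% of the variance, parted the 6 dexamethasone libraries from the 6 vehicle libraries. The root mean square deviation of a library from its group mean was 0.092 to 0.18 log2 units. Of the 13 hepatocyte markers measured, 6 rose and 2 fell, Apob and Trf, and 1 fell when any intact library, ovariectomized dexamethasone replicate 1 or ovariectomized vehicle replicate 2 was left out. Their log2 summed level was 22.42 to 22.53 in intact vehicle, 22.23 to 22.34 in intact dexamethasone, 22.25 to 22.39 in ovariectomized vehicle and 22.38 to 22.58 in ovariectomized dexamethasone livers. Read depth is unknown because the deposited values are normalized.

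Across both states 2910 genes rose and 2957 fell, 22.4% and 22.8% of the 12965 tested, by limma's moderated test of the additive model with Benjamini-Hochberg adjusted p under 0.05, the criterion behind "rose" and "fell" throughout. A stricter criterion asked for the same direction at adjusted p under 0.05 in the intact and in the ovariectomized livers separately. It was met by 1285 genes that rose, 9.91% of those tested, and 1369 that fell, 10.6%, written below as changed in each state. Changes of at least 2-fold were much fewer: 144 genes rose that far in the additive model and 107 fell, 1.11% and 0.825%. The median absolute difference was 0.18 log2 units over all genes and 0.46 over the genes changed in each state. In 1339 genes, or 10.3%, all 6 dexamethasone libraries lay above all 6 vehicle libraries, and in 1308, or 10.1%, all lay below.

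**Figure D1:**
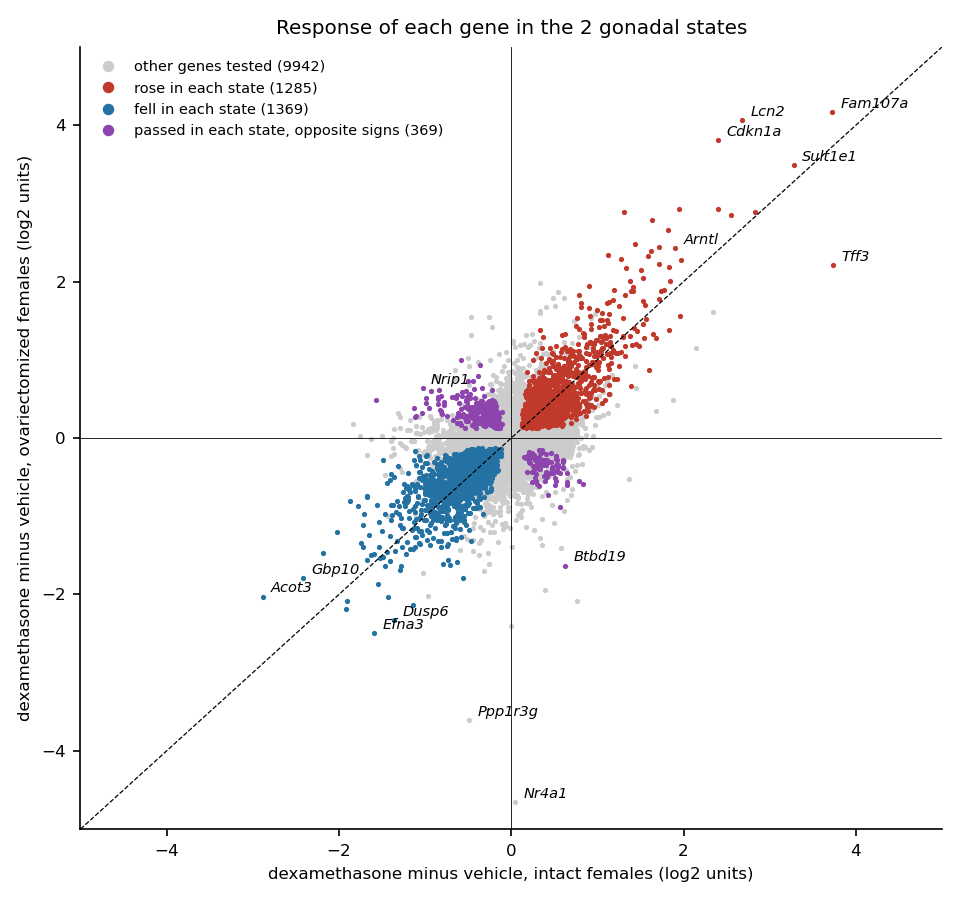
Each point is one of the 12965 tested genes, with the dexamethasone minus vehicle difference in intact females on the horizontal axis and in ovariectomized females on the vertical axis (log2 units), and the dashed line marks equal responses. The 1285 genes that rose in each state and the 1369 that fell in each state lie along the dashed line, and 369 genes passed in each state with opposite signs.

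The 20 largest rises that held in each state, with the dexamethasone libraries all above the vehicle libraries, ranged from 1.63 to 3.95 log2 units in the additive model, or 3.09-fold to 15.4-fold. Fam107a, an actin-associated protein, led them. Its level was 6.32 to 6.41, median 6.38, in the vehicle livers and 9.20 to 11.12, median 10.36, in the dexamethasone livers, a rise of 3.95 ± 0.24 (SE) or 15.4-fold (limma adjusted p = 2.76e-07). The vehicle libraries were nearly equal and every dexamethasone library lay more than 2 units above them. Sult1e1, the sulfotransferase that inactivates oestrogens, went from 5.31 to 5.53, median 5.47, to 8.17 to 9.20, median 8.86, a rise of 3.39 ± 0.15 or 10.5-fold. Lcn2, the iron-carrier-binding protein lipocalin 2, went from 9.32 to 10.54, median 9.68, to 12.38 to 13.55, median 13.19, or 10.4-fold. Cdkn1a, the cell cycle inhibitor p21, went from 7.46 to 8.04, median 7.70, to 9.21 to 11.73, median 11.14, or 8.63-fold. In none of these 4 genes did the treatments overlap, which their choice required, and in Cdkn1a the dexamethasone livers were the more spread.

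Sequence upstream of the start is printed for 4 of the genes that rose in each state by at least 2-fold and hold, in RefSeq's promoter windows (GRCm38.p6), the palindromic core ACANNNTGT, which resembles the centre of the glucocorticoid receptor's binding element. Each run is the 250 bases before the annotated start, 5′ to 3′ on the gene's strand, with the core in capitals: Fam107a at chr14:8309780-8310029 (minus strand, core at -116 from the start), Lcn2 at chr2:32387740-32387989 (minus, -152), Mt1 at chr8:94178839-94179088 (plus, -92) and Greb1 at chr12:16757240-16757489 (minus, -229).
Fam107a: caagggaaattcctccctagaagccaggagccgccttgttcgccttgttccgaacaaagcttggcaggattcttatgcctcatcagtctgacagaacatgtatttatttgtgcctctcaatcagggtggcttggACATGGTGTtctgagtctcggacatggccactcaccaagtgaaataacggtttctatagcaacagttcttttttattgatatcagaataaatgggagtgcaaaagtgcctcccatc
Lcn2: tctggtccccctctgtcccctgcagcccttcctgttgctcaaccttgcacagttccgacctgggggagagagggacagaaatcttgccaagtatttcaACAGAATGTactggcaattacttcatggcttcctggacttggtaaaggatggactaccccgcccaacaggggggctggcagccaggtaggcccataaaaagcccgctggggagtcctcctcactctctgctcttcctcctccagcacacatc
Mt1: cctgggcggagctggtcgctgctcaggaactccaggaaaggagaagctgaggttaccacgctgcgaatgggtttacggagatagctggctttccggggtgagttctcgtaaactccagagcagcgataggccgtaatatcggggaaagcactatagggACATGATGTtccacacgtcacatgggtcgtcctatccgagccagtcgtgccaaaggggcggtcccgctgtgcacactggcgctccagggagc
Greb1: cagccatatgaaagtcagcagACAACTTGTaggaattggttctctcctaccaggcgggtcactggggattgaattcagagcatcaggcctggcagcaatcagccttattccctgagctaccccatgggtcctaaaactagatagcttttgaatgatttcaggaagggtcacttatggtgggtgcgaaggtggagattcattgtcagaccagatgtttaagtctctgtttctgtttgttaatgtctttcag
The core, searched on both strands in windows of 300 bases from 250 before to 50 after the start, was in 4.48% of all 13162 windows of tested genes. It was in 14.0% of the 121 windows of genes that rose in each state by at least 2-fold, in 7.07% of the windows of genes that fell as far, and in 4.86% of the windows of all genes that rose in each state. Counted by gene, 16 of 93 such risers with a window held it, or 17.2%, against 5.38% of all 10328 genes with a window. Among these were Bhmt, Cyp8b1, Orm3 and Tdo2 besides the 4 printed. The letters AGAACA, one arm of the full element, were in 14.0% of the risers' windows and in 12.9% of all windows. A match is a run of letters, not a measured binding site.

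Other leading genes separated the treatments as fully, which their choice required. Cyp2b10, the cytochrome P450 best known as a target of the xenobiotic receptor CAR, was at 11.74 to 12.10, median 11.83, with vehicle and at 13.55 to 14.35, median 13.97, with dexamethasone, a rise of 2.12 ± 0.10 (limma adjusted p = 7.15e-08). Treh, trehalase, went from a median of 4.84 to 7.50, and its vehicle livers spanned only 4.65 to 4.88. Greb1, known as an oestrogen-responsive gene, rose from a median of 3.90 to 5.60, and by a like amount in intact (1.72) and ovariectomized (1.77) livers. Its vehicle median lay under the minimum mean level of 4, which is taken over all 12 libraries, so its dexamethasone livers helped it pass that filter. Mt1, the zinc-binding metallothionein, rose from a median of 13.45 to 15.15, by 1.55 in intact and 1.70 in ovariectomized livers. The translation repressor Eif4ebp3, a member of the family that binds the cap-binding protein eIF4E, gave the smallest adjusted p of the leading genes: its vehicle livers lay at 9.97 to 10.28 and its dexamethasone livers at 12.87 to 13.35, a rise of 2.86 ± 0.073 (limma adjusted p = 1.25e-10). The Eif4ebp3 value is uncertain, since 65.5% of the 50-base words of its transcripts also occur in transcripts of other genes.

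Other members of this leading set were the lipid droplet protein Plin5 (2.08), the phosphatidate phosphatase Lpin1 (1.96), the mTORC1 inhibitor Ddit4 (2.00), the ferritin receptor Scara5 (1.81), nicotinamide N-methyltransferase Nnmt (1.83), the melanocortin receptor accessory protein Mrap (1.97), the protease inhibitor Serpina3k (2.24), the mucosal repair peptide Tff3 (2.97) and the pseudogene Serpina4-ps1 (2.71), all as additive differences in log2 units. Tff3 was the most uneven, at 4.76 to 5.27 with vehicle and 6.73 to 10.51 with dexamethasone. Saa1, serum amyloid A, rose by 2.21, but 32.1% of its 50-base words are shared with other genes. These members thus covered lipid storage, iron handling, translation control, detoxification and plasma proteins rather than one pathway.

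The 20 largest falls ran from -1.32 to -2.46 log2 units. Acot3, an acyl-CoA thioesterase of peroxisomes, was at 11.94 to 13.18, median 12.65, in the vehicle livers and 9.70 to 11.20, median 10.09, in the dexamethasone livers, 5.49-fold lower (difference -2.46 ± 0.24, limma adjusted p = 8.09e-06). Rnf186, a ubiquitin ligase, fell from 8.35 to 9.11, median 8.63, to 6.53 to 6.87, median 6.72, 3.98-fold lower, and its dexamethasone livers were the tighter group. The ERK phosphatase Dusp6 fell from 10.14 to 11.31, median 10.55, to 8.60 to 9.15, median 8.70. Efna3, a membrane-bound ligand of Eph receptors, fell from a median of 6.91 to 4.75, with the 6 dexamethasone livers within 4.60 to 4.81. No vehicle liver overlapped a dexamethasone liver in these genes, which their choice required.

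Several of the falling genes act at the cell surface or in signalling. The tumour necrosis factor receptor family member Tnfrsf19 had a difference of -1.62, the Ras pathway inhibitor Spry4 -1.46, the G protein regulator Rgs16 -1.50, the scaffold protein Shank2 -1.40, the calcium sensor Ncald -1.54 and the membrane protein Ldlrad4 -1.45. Structural proteins were among them too: the keratin Krt23 (-1.56), the collagen Col15a1 (-1.50) and the desmosomal cadherin Dsg1c (-1.83, with 29.6% of its words shared). The others include the peroxisomal fatty acid transporter Abcd2 (-1.54), the sphingomyelin synthase Sgms2 (-1.32), the cytochrome P450 Cyp2g1 (-1.49), the ubiquitin ligase Rnf152 (-1.53) and the stress-response gene Osgin1 (-1.56).

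**Figure D2:**
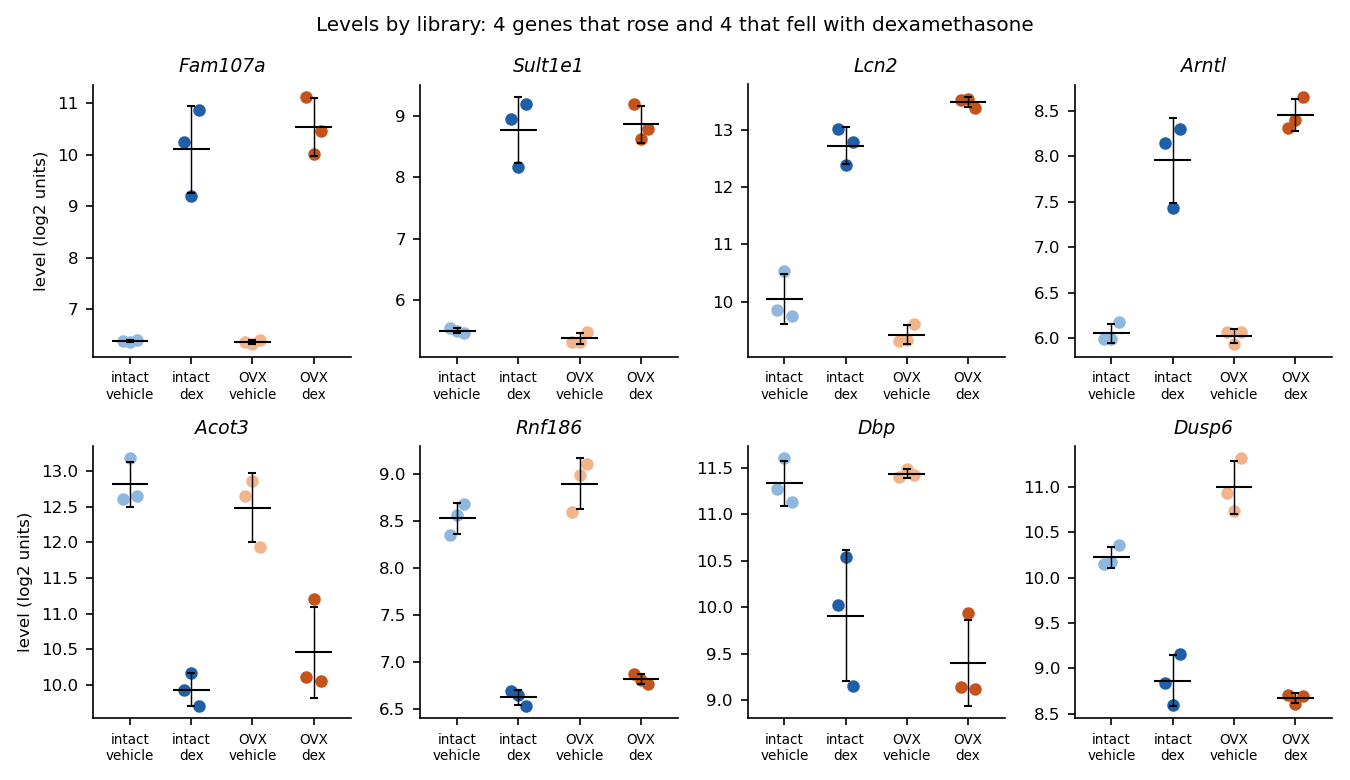
Levels of 8 genes in each of the 12 libraries (vertical axis, log2 units; points are libraries, bars the mean with SD of 3 libraries, dex is dexamethasone and OVX ovariectomized). Fam107a, Sult1e1, Lcn2 and Arntl lie higher in both dexamethasone groups and Acot3, Rnf186, Dbp and Dusp6 lower, with no overlap between treatments, as their choice required.

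Genes known as glucocorticoid receptor targets rose as a group. Of the 30 measured members of this list, 20 rose, none fell, and 15 rose in each state, with a median difference of 0.89 log2 units (0.75 in intact, 1.05 in ovariectomized livers) against 0.00055 over all tested genes. None was lower at an unadjusted limma p under 0.05 either. In 14 of them all dexamethasone libraries lay above all vehicle libraries. The list was written with results of these libraries known, so its direction is not independent evidence. Fkbp5, the co-chaperone that feeds back on the receptor, was at 10.37 to 11.57, median 11.00, with vehicle and at 12.20 to 13.23, median 12.92, with dexamethasone, a rise of 1.78 ± 0.20 (limma adjusted p = 2.76e-05). Tsc22d3, the leucine zipper protein GILZ, went from 10.48 to 11.09, median 10.69, to 11.21 to 11.85, median 11.63, a rise of 0.86. Zbtb16, a zinc finger transcription factor, rose by 2.10, the growth arrest gene Gadd45b by 1.67 and the metallothionein Mt2 by 1.58, each without overlap. The 10 members that did not pass were Sgk1 (0.32), Klf9 (0.38), Klf15 (0.10), Pck1 (-0.16), Igfbp1 (-0.02), Nfkbia (-0.05), Pdk4 (-0.02), Bcl6 (0.17), G6pc (0.22) and Glul (0.14), given here to complete the count.

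Genes of the receptor's own machinery changed in either direction. Of 20 genes for the receptors, their chaperones, coregulators and hormone supply, 7 fell and 4 rose. These were 35% and 20%, against 22.8% and 22.4% of all tested genes. Only 2 fell and 1 rose in each state, 2 passed in each state with opposite signs, and the difference between states passed in 10. The rises were 2 when intact dexamethasone replicate 1 or 3 or intact vehicle replicate 1 or 2 was left out. In the model of 4 group means 11 fell. Nr3c1, the glucocorticoid receptor, overlapped between treatments: it was at 10.93 to 11.44, median 11.16, with vehicle and 10.74 to 11.00, median 10.84, with dexamethasone (difference -0.30 ± 0.086, limma adjusted p = 0.0119). Its change was -0.57 in intact and -0.03 in ovariectomized livers, and that difference between states passed (limma adjusted p = 0.001). Nr3c2, the mineralocorticoid receptor, fell from a median of 7.55 to 6.17. Serpina6, the corticosteroid-binding globulin of plasma, fell from 14.58 to 15.41, median 15.16, to 13.41 to 14.04, median 13.84, 2.51-fold lower. Hsd11b1, the enzyme that regenerates active hormone inside the cell, had a small fall, from a median of 14.22 to 13.97. Per1, a clock gene also known as a receptor target, rose by 0.50 with overlapping groups.

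Clock genes changed in both directions. Of 18 measured, 5 rose and 8 fell, with a median of -0.15, and 4 rose and 4 fell in each state. On the activator side, Arntl, which encodes BMAL1, went from 5.93 to 6.18, median 6.03, to 7.43 to 8.65, median 8.31, a rise of 2.16 ± 0.15 or 4.48-fold (limma adjusted p = 5.81e-07), and its partner Clock rose by 0.99. On the repressor side, Ciart went from a median of 8.79 to 9.99 and Cry1 rose by 0.95, while Per3 fell from a median of 11.59 to 10.40. Nr1d1 and Nr1d2, the REV-ERB repressors of Arntl, fell, with differences of -1.04 and -0.74. The output factor Dbp fell from 11.13 to 11.60, median 11.41, to 9.12 to 10.54, median 9.55, 3.32-fold lower. Smaller falls were those of Bhlhe40 (-0.67), Tef (-0.32) and Rora (-0.22), and the values that did not pass were Nfil3 0.31, Hlf -0.16, Per2 -0.14, Cry2 -0.03 and Bhlhe41 -0.02. The livers of both treatments were collected 6 h after injection, and the labels give no clock time of collection.

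The upstream windows of 2 of these genes are printed because they hold the letters of clock elements several times over and the genes moved in opposite directions. Ciart (chr3:95882229-95882478, minus strand, GRCm38.p6) has the E-box CACGTG, the element of BMAL1 and CLOCK, at -116, -58 and -44 from its start. Per3 (chr4:151044666-151044915, minus strand) has the D-box TTATGTAA, the element of DBP, at -205 and -158. The elements are in capitals.
Ciart: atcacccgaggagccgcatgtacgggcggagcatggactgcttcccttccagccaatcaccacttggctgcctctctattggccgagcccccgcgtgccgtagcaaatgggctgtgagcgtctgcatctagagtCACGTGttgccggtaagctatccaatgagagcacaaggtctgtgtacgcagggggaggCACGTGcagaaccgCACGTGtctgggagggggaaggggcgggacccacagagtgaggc
Per3: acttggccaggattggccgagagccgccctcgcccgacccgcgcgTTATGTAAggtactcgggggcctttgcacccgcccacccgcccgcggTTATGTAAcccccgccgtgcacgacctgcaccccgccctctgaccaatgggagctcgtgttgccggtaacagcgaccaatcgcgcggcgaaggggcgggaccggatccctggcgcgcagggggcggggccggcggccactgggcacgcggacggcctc
The E-box, on both strands, was in 6 of the 20 windows of clock list genes, or 30%, and in 9.82% of all windows. The D-box was in 1 of these 20 windows, that of Per3, or 5%, and in 0.585% of all windows. In windows of all genes that rose in each state, the E-box share was 10.03%, and in those of genes that fell in each state 9.01%. For the D-box these shares were 0.608% and 0.934%. The part of these letters in the changes of the clock genes was not tested.

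**Figure D3:**
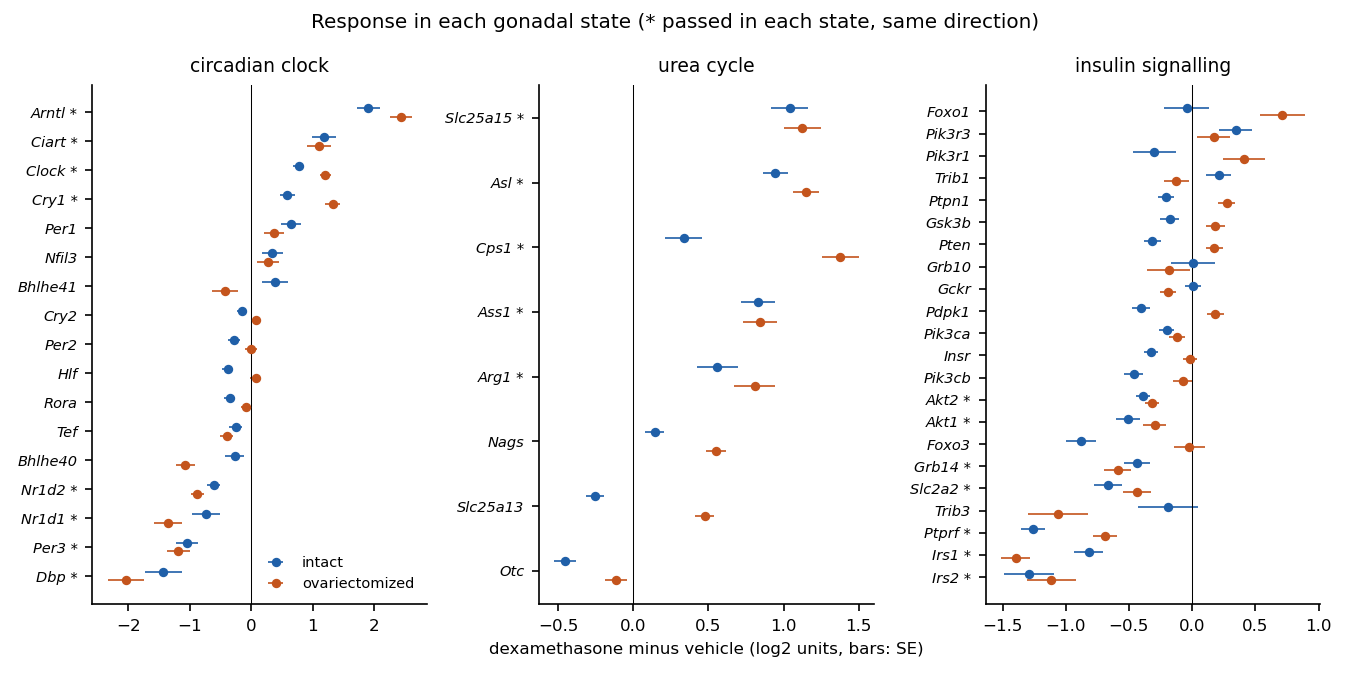
Dexamethasone minus vehicle (horizontal axis, log2 units, bars are SE) in intact (blue) and ovariectomized (orange) livers for 17 clock, 8 urea cycle and 22 insulin signalling genes, with * for genes that passed in each state in the same direction. Arntl and Dbp stand at opposite ends of the clock panel, the 5 starred urea cycle genes lie above 0, and Irs1, Irs2 and Ptprf lie below 0 in each state.

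The urea cycle, which turns the nitrogen of amino acids into urea, rose in most of its steps. Of its 8 genes 6 rose and 1 fell, with a median of 0.76, and 5 rose in each state. The median was 0.45 in intact and 0.82 in ovariectomized livers. The difference between states passed in 4 of the 8, and 1 gene passed in each state with opposite signs. Among the steps after citrulline, Asl, argininosuccinate lyase, went from 14.13 to 14.42, median 14.24, to 15.20 to 15.45, median 15.30. This was a rise of 1.05 ± 0.07 (limma adjusted p = 5.39e-07). Ass1 rose by 0.84 (55.3% of its words shared) and Arg1 by 0.68. The mitochondrial ornithine carrier Slc25a15 rose from a median of 13.38 to 14.49. Cps1, the entry enzyme, rose by 0.86, with 0.33 in intact and 1.38 in ovariectomized livers and a difference between states that passed (limma adjusted p = 0.0019), and its activator-forming enzyme Nags rose by 0.35. Otc, the enzyme that makes citrulline, was the one that fell, with a difference of -0.28, and the carrier Slc25a13 had a value of 0.11 that did not pass.

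Upstream of the cycle, 13 of 38 amino acid catabolism genes rose and 3 fell, with a median of 0.09. The rises were concentrated in few enzymes of large change. Tdo2, the first enzyme of tryptophan breakdown, went from a median of 14.82 to 16.40, and Acmsd, a later enzyme of the same pathway, from 8.19 to 9.40. The serine and threonine dehydratases Sds and Sdsl rose by 1.34 and 1.29, and each had its 6 dexamethasone livers above the vehicle livers. Tat, tyrosine aminotransferase, the textbook receptor target, went from a median of 15.07 to 16.15 with overlapping groups. Amdhd1 (-0.36), Aldh4a1 (-0.36) and Afmid (-0.27), of histidine, proline and tryptophan breakdown, were the 3 that fell. Among 24 amino acid transporters 5 rose and 5 fell, 20.8% each and near the shares of all tested genes. The leucine-preferring Slc43a1 rose by 1.43 and the glutamine carrier Slc1a5 by 0.85, while the taurine transporter Slc6a6 (-0.87) and the glutamine carrier Slc38a3 (-0.73) fell.

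Gluconeogenic genes did not move as one. Of 20, 7 rose and 2 fell, and 11 rose when the contrast was taken from the model of 4 group means. The aspartate and alanine aminotransferases Got1 and Gpt2 rose, from a median of 13.29 to 14.37 and from 13.93 to 14.68, and so did Slc37a4, which carries glucose 6-phosphate into the endoplasmic reticulum (0.77). The 2 best-known enzymes of the pathway did not pass, with values of -0.16 for Pck1 and 0.22 for G6pc, and Fbp1 fell (-0.49). The kinase Sik1, an inhibitor of the pathway's CREB coactivators, fell by 1.17 on the log2 scale with overlapping groups.

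Some insulin signalling genes fell. Of 23, 12 fell, 7 of them in each state. Irs1, an insulin receptor substrate, fell from 9.51 to 10.40, median 10.12, to 8.67 to 9.16, median 8.93 (-1.11 ± 0.11, limma adjusted p = 1.33e-05). Irs2 fell from a median of 8.75 to 7.51, although the highest dexamethasone liver, at 8.42, lay above the lowest vehicle liver, at 8.31. The receptor phosphatase Ptprf (-0.97), the kinases Akt1 (-0.40) and Akt2 (-0.35) and the glucose transporter Slc2a2 (-0.55) also fell.

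Glycogen and translation control moved with this pattern in part. Of 19 glycogen genes, 10 fell, 5 of them in each state, with a median of -0.45 in intact and -0.09 in ovariectomized livers. Glycogen synthase Gys2 fell from 13.19 to 13.67, median 13.50, to 12.09 to 12.78, median 12.51, and Ugp2, which makes the sugar donor, had a difference of -0.70. Ppp1r3b, which brings a phosphatase to glycogen, rose, from a median of 11.71 to 13.23. Among 22 brakes on translation and mTORC1, 5 rose, 22.7% against 22.4% of all tested genes, and 10 fell, 45.5% against 22.8%. Eif4ebp3 and Ddit4 were the large rises named above, and Eef2k (-0.86) and Sesn2 (-0.72), both without overlap, were among the falls. In the autophagy list of 29, 9 rose and 6 fell, 31.0% and 20.7% against the same 22.4% and 22.8%. The phosphoinositide-binding Wipi1 by 1.07, the mitophagy receptor Bnip3 by 0.85 (21.9% of its words shared) and Map1lc3b by 0.54 rose without overlap.

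Genes of fatty acid synthesis mostly fell, and some of cholesterol synthesis fell. Of 20 fatty acid synthesis genes 13 fell and 3 rose, with a median of -0.39, and 6 fell and 2 rose in each state. Their summed level overlapped between treatments, at 17.88 to 18.64 with vehicle and 18.03 to 18.30 with dexamethasone in intact livers. After ovariectomy it was 18.19 to 18.70 with vehicle and 18.29 to 18.65 with dexamethasone. Srebf1, the transcription factor of the pathway, fell from 13.06 to 13.96, median 13.52, to 11.92 to 12.67, median 12.49, and Acly, which makes cytosolic acetyl-CoA, from a median of 12.80 to 11.68. The 3 that rose were Insig2, which retains SREBP proteins in the endoplasmic reticulum (1.83), Thrsp (1.23) and the acyltransferase Agpat2 (0.53). Of 25 cholesterol synthesis genes and SREBP2 targets 10 fell, 15 did not pass and none rose, also at an unadjusted limma p under 0.05, with a median of -0.37. They included the sterol carrier Stard4 (-1.20), squalene synthase Fdft1 (-0.89) and Sc5d (-0.87), each without overlap. Srebf2 itself had a value of -0.01 that did not pass in the additive model, and it passed in each state with opposite signs.

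Fat storage and burning genes were mixed. Of 25 lipid droplet and lipase genes 11 rose and 3 fell, led by Plin5, Plin4 (2.01, overlapping groups) and Lpin1, while Plin2, the common droplet coat protein, fell (-0.80). The lipase Pnpla2, also known as ATGL, rose by 0.91. Of 33 fatty acid oxidation genes and PPARα targets 6 rose and 13 fell, 1 and 7 of them in each state. The median of the 33 was -0.19 in intact and 0.04 in ovariectomized livers. Ppara itself fell, from a median of 13.43 to 12.50, and Acot4 joined Acot3 and Abcd2 with a difference of -1.32. Of 21 apolipoproteins and lipoprotein receptors 5 rose and 5 fell, 23.8% each and near the shares of all tested genes, and 3 fell when any intact library was left out. Apoa4 (1.07), Apoa1 (0.67), Apoc3 (0.52) and Saa4 (1.42) rose with no overlap between treatments, and Vldlr (-0.48), Lrp1 (-0.41), Apom (-0.35), Apob (-0.31) and Abcg1 (-0.30) fell.

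Bile acid and sterol export genes changed in opposite ways. Of 24 bile acid genes 4 rose and 11 fell, with a median of -0.38 in intact and -0.06 in ovariectomized livers. In each state 2 rose and 4 fell. Cyp8b1, which directs synthesis to cholic acid, went from 11.51 to 12.69, median 12.29, to 13.01 to 13.80, median 13.16. Cyp27a1 (0.76), Cyp7a1 (0.68), the rate-limiting enzyme, and the receptor Fgfr4 (0.13) were the others that rose. The repressor Nr0b2, also known as SHP, fell from a median of 8.94 to 7.86. The paired sterol exporters Abcg5 and Abcg8 fell together, by 0.96 and 1.19 on the log2 scale, and their vehicle and dexamethasone livers did not overlap.

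Genes of steroid and drug metabolism fell in part, and a few of their enzymes rose by a large amount. In the list of 19 genes of steroid reduction and conjugation, 4 rose and 10 fell, with a median of -0.32. The rises were Sult1e1, Hsd3b1 (1.97), Cyp17a1 (1.64) and Hsd17b2 (0.40). Hsd3b1 was at 6.38 to 7.09 with vehicle and at 7.04 to 10.11 with dexamethasone, overlapping at the lower end. Of 40 genes of cytochrome P450 families 1 to 3 and their reductase, 16 fell and 3 rose, the latter count being 5 without intact vehicle replicate 1 and 6 with array weights. The median of the 40 was -0.33 in intact and -0.03 in ovariectomized livers, and 7 fell in each state. Besides Cyp2b10 the rises were small, Cyp1b1 (0.43) and Cyp1a1 (0.32), and Cyp2a4 (-1.17, 38.0% of its words shared) and Cyp2b13 (-1.03, 27.3% shared) were among the falls. Of 37 phase II enzymes 17 fell and 4 rose: Nnmt, the sulfotransferase Sult1d1, which went from a median of 12.50 to 13.90, Gstm2 (0.58) and Gstt3 (0.37). Sult1c2 fell without overlap (-0.89). The median of the phase II list was -0.38 in intact and -0.10 in ovariectomized livers, and 7 of its genes fell in each state.

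Glutathione and methyl group genes parted within one list of 27, in which 8 rose and 11 fell. The methyl cycle genes Bhmt (1.29) and Ahcy (0.53) rose, and Bhmt went from a median of 15.12 to 16.52. The enzymes that make glutathione, Gclc (-0.79), Gclm (-0.60) and Gss (-0.50), fell, as did Nfe2l2, the transcription factor of the antioxidant response (-0.56). The secreted peroxidase Gpx3 rose by 1.02.

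**Figure D4:**
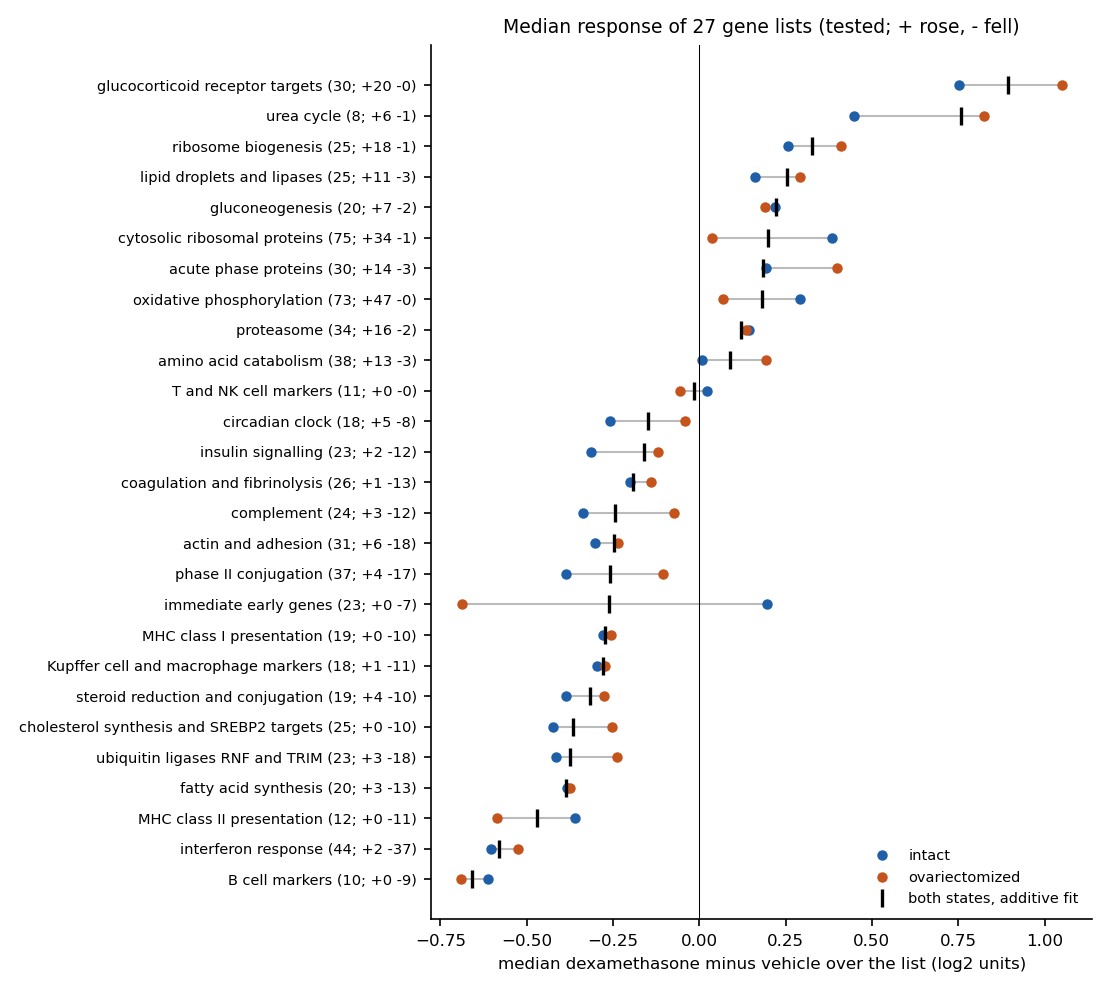
Median dexamethasone minus vehicle difference (horizontal axis, log2 units) of 27 gene lists, for intact (blue), ovariectomized (orange) and both states (black bar), with the number of genes tested, risen (+) and fallen (-) beside each name. Known receptor targets (0.89) and the urea cycle (0.76) are at the top, and the interferon response (-0.58) and B cell markers (-0.66) at the bottom.

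Plasma proteins of the acute phase rose in part. Of 30, 14 rose and 3 fell. Besides Lcn2, Serpina3k and Saa1, Orm3, an orosomucoid, went from a median of 7.44 to 9.42 and haptoglobin Hp rose by 1.02. The classical members Crp (0.12), Fga (-0.18), Fgb (0.13), Fgg (-0.03) and Hpx (0.11) did not pass, so the rise did not cover the whole class. The 3 that fell were Il1rn, the interleukin 1 receptor antagonist (-0.76), Itih4 (-0.50) and Cp (-0.35). Of 20 genes of interleukin 6 and STAT signalling, 3 rose, 15% against 22.4% of all tested genes, and 4 fell, and 5 rose without intact vehicle replicate 1. The 3 were the cytokine receptors Il1r1, which went from a median of 9.82 to 11.32, and Osmr (0.84), and the kinase Pim3 (0.59). Of 24 complement genes 12 fell, 4 of them in each state, with a median of -0.34 in intact and -0.07 in ovariectomized livers. Of 26 coagulation and fibrinolysis genes 13 fell, 7 of them in each state, with medians of -0.20 and -0.14. Mannose-binding lectin Mbl2 (-0.58) and antiplasmin Serpinf2 (-0.64) fell without overlap.

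Interferon response genes fell almost throughout. Of 44 measured, 37 fell and 2 rose, 32 fell in each state, and the median was -0.58. In 20 of them all 6 dexamethasone livers lay below all 6 vehicle livers. Ifit1, which binds viral RNA, fell from 7.93 to 8.77, median 8.29, to 6.69 to 7.63, median 7.13 (-1.14 ± 0.067, limma adjusted p = 1.99e-07), by nearly the same in intact (-1.13) and ovariectomized (-1.15) livers. Irgm2, an immunity-related GTPase, fell from 9.99 to 11.28, median 10.39, to 8.96 to 9.30, median 9.19, and the dexamethasone livers were the tighter. Zbp1, a nucleic acid sensor, had a difference of -1.45. Guanylate-binding proteins fell too, with -2.11 for Gbp10 and -1.22 for Gbp6, but 82.5% and 59.7% of their words are shared with relatives, so reads could be split among them. The 2 that rose were Stat2 (0.30) and Ifi35 (0.29), and the 5 that did not pass were Bst2 (-0.14), Ifi27 (-0.08), Dtx3l (-0.21), Gbp5 (-0.21) and Irgm1 (-0.04).

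The upstream windows of Ifit1 (chr19:34640639-34640888, plus strand, GRCm38.p6) and Irgm2 (chr11:58214727-58214976, plus strand) are shown as 2 members that fell in each state and hold the letters GAAANNGAA, the core of interferon-stimulated response elements, in capitals. In Ifit1 3 overlapping or neighbouring matches form runs from -109 and -84, and Irgm2 has 1 at -64.
Ifit1: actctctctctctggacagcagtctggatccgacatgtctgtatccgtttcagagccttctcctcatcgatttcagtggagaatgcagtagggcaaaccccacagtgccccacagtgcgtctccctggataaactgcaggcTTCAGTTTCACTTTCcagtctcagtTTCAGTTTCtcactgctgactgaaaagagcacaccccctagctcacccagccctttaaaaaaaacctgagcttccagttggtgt
Irgm2: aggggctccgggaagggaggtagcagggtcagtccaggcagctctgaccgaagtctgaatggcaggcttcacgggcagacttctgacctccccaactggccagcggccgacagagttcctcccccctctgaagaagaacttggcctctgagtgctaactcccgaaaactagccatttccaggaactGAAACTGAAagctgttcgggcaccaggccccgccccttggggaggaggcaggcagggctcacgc
These letters, on both strands, were in 21 of the 34 windows of the interferon list, or 61.8%, and in 7.32% of all windows. The letters TTCNNNGAA, the STAT element, were in 29.4% and 6.99%. In windows of all genes that fell in each state, the shares were 8.21% for GAAANNGAA and 6.94% for TTCNNNGAA. For those that fell by at least 2-fold they were 11.1% and 13.1%. The list is made of known interferon genes, and the part of these letters in the falls was not tested.

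Antigen presentation genes fell beside them. Of 19 MHC class I genes 10 fell and none rose, also at an unadjusted limma p under 0.05: the immunoproteasome subunits Psmb9 (-0.76) and Psmb10 (-0.55) and the peptide transporter Tap1 (-0.48) were lower, while H2-K1 (-0.03), H2-D1 (0.02) and B2m (-0.04) did not pass. Of 12 MHC class II genes 11 fell, and 7 fell when only genes with a mean of at least 6 were tested, which removes the lower members. H2-Ob fell from a median of 5.99 to 5.35 and H2-Ab1 from 9.43 to 8.84, the latter with overlapping groups. The summed class II level was 12.62 to 12.98 in intact vehicle against 12.33 to 12.52 in intact dexamethasone livers, and 12.52 to 12.88 against 12.11 to 12.31 after ovariectomy.

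Markers of B cells, which carry class II proteins, fell by like amounts. Of 10 measured, 9 fell, 8 of them in each state and 8 with no overlap, and the median was -0.66. Only 2 of them pass a minimum mean of 6, and both fell there. The B cell adaptor Bank1 fell from 5.39 to 6.23, median 5.83, to 4.80 to 5.24, median 5.06 (-0.77 ± 0.081, limma adjusted p = 1.5e-05). Igj, of antibody-secreting cells, was the exception (-0.07), and Pax5 was under the minimum level for testing. In whole liver, fewer cells of a type and less RNA per cell cannot be told apart. The summed B cell level was 8.90 to 9.18 in intact vehicle, 8.37 to 8.47 in intact dexamethasone, 8.80 to 9.09 in ovariectomized vehicle and 8.19 to 8.22 in ovariectomized dexamethasone livers. The part of the B cell genes in the class II and interferon falls was not tested.

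Markers of other blood and tissue cells changed to varying extents. Under the minimum level for testing were 7 of 18 T and NK cell markers and 10 of 13 neutrophil markers. Of 11 T and NK cell markers none rose or fell by limma (at an unadjusted p under 0.05, 0 were higher and 1 was lower), with a median of -0.01, and their summed level was 8.92 to 9.14 in intact vehicle, 8.93 to 9.05 in intact dexamethasone, 9.06 to 9.13 in ovariectomized vehicle and 8.78 to 8.98 in ovariectomized dexamethasone livers. Of 18 Kupffer cell and macrophage markers 11 fell and 1, Cd163 (0.58), rose, with a median of -0.28. Among them Aif1 (-0.66) and Emr1 (-0.61), which encodes F4/80, fell, while Clec4f, a defining Kupffer cell gene, had a value of -0.00 that did not pass. Their summed level was 14.62 to 14.67 against 14.41 to 14.46 in intact livers and 14.27 to 14.46 against 13.99 to 14.31 after ovariectomy. Neutrophil markers had a median of -0.55, with -0.10 in intact and -0.85 in ovariectomized livers. All 3 tested were lower at an unadjusted limma p under 0.05. Of the 3 neutrophil markers tested, S100a8 (-0.55) and S100a9 (-0.63) passed, but both missed the threshold when intact vehicle replicate 2, ovariectomized vehicle replicate 2 or 3, or ovariectomized dexamethasone replicate 1 or 2 was left out (limma adjusted p 0.0525 to 0.0635 and 0.0537 to 0.0628). Of 18 sinusoidal endothelial markers 5 rose, 27.8% against 22.4% of all tested genes, and 8 rose without ovariectomized vehicle replicate 1. Kdr (-0.38) and Dnase1l3 (-0.20) fell, a count that was 4 without intact vehicle replicate 2 and 1 or 2 without any other library. The scavenger receptors Lyve1 and Stab1 rose, Lyve1 from 7.98 to 8.86, median 8.60, to 9.59 to 10.78, median 9.98.

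**Figure D5:**
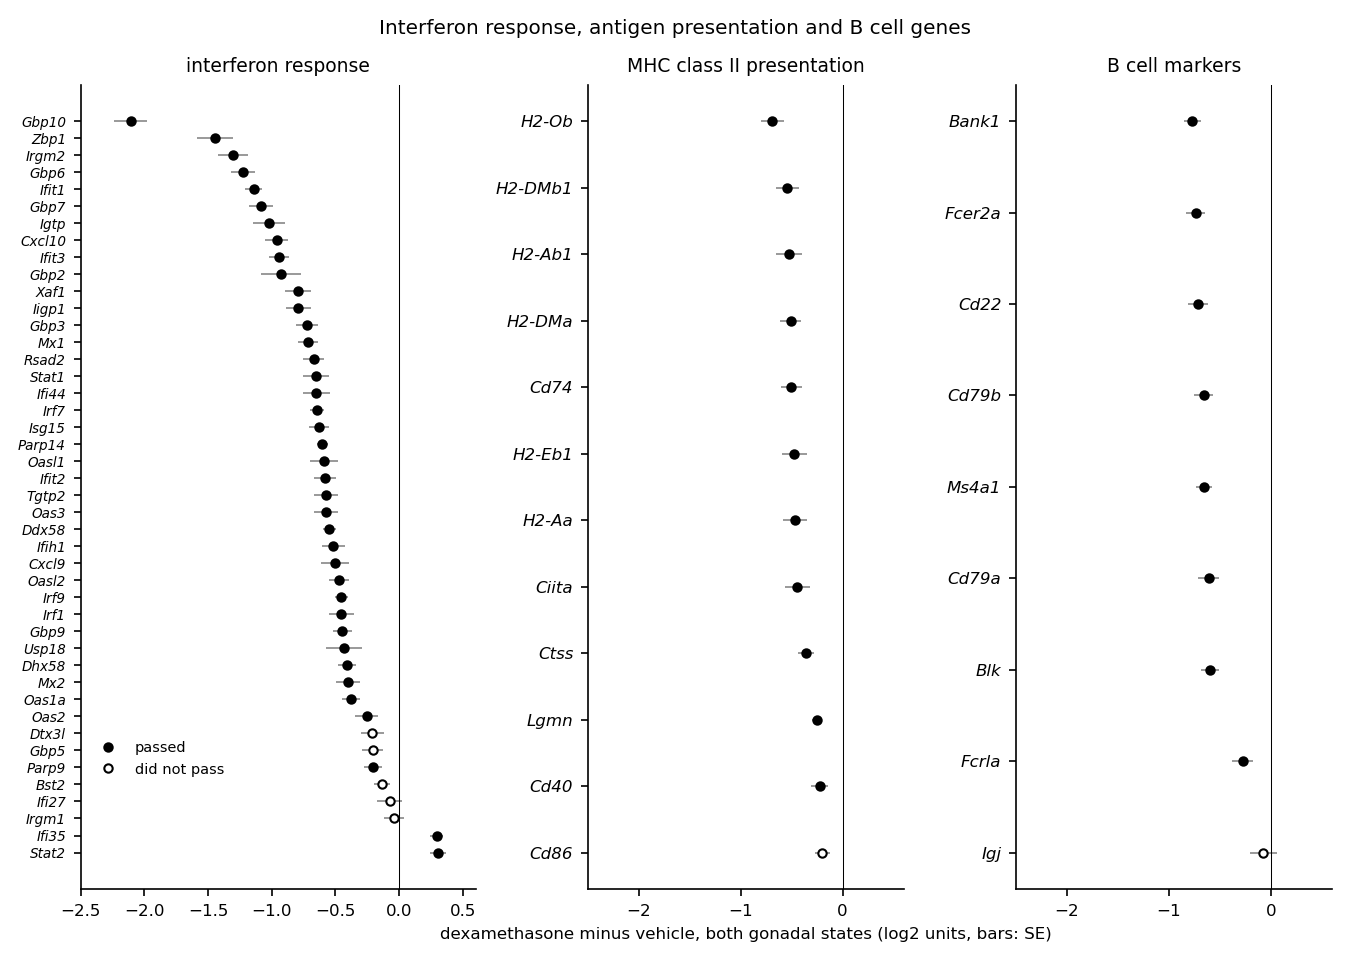
Additive dexamethasone minus vehicle difference (horizontal axis, log2 units, bars are SE) of 44 interferon response, 12 MHC class II and 9 B cell genes, with filled points for genes that passed and open points for those that did not. Nearly all filled points lie below 0, with Stat2 and Ifi35 as the 2 interferon genes above it.

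Inflammatory mediators changed less widely. Of 25 measured genes of the NF-kappaB list, 10 fell and 3 rose. The chemokine Cxcl1 fell from a median of 6.99 to 6.41 without overlap, and Il1b from 5.76 to 4.93 with overlap. The falls of Il1b and Il1a differed between states (intact -0.26 and -0.11, ovariectomized -1.61 and -1.10). Nfkbia, the inhibitor known as a receptor target, did not pass (-0.05). The adhesion molecule Vcam1 rose by 0.82.

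Growth signalling genes showed changes of either sign. In the list of 18 MAP kinase phosphatases and Sprouty proteins, 4 rose and 8 fell, so that the 22.2% that rose was near the 22.4% of all tested genes. Errfi1, which inhibits the EGF receptor, went from 12.94 to 14.02, median 13.69, to 14.15 to 15.03, median 14.88, by 1.15 in intact and 1.17 in ovariectomized livers. Dusp1, the phosphatase known as a receptor target, rose by 1.19 with overlapping groups and unequally, by 1.88 in intact and 0.49 in ovariectomized livers. Of 32 receptor tyrosine kinases and ligands 7 rose and 9 fell, 21.9% and 28.1%. Fgfr2 (-0.90) fell, and Epha2 (0.89) and Pdgfra (0.86) rose, each without overlap. The matricellular growth factor Ctgf rose from a median of 7.59 to 9.38. In the growth hormone axis, of 20 genes 9 fell and 2 rose: the receptor Ghr had a difference of -0.60, while Igf1 had -0.05 and did not pass.

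Of 31 cell cycle genes 11 fell, 3 rose and 17 did not pass. Ccnd1, the G1 cyclin, fell from a median of 11.77 to 10.85 without overlap, the replication helicase subunits Mcm5 and Mcm6 had differences of -0.76 and -0.79, and E2f1 -0.64. Plk1 (0.21), Aurkb (-0.06), Cdc20 (0.01), Bub1 (0.06) and Mki67 (-0.04) did not pass. Rrm2, a subunit of ribonucleotide reductase, rose from a median of 7.18 to 8.55, and the other 2 that rose were Birc5 (0.40) and Mcm7 (0.22). Of 18 growth arrest genes 6 rose and 6 fell. Cdkn1a and Gadd45b were joined by Gadd45g (1.64, overlapping groups), while Gadd45a fell from a median of 7.68 to 6.69.

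Many genes for making and breaking down protein rose, by small amounts and not always in each state. Of 25 ribosome biogenesis genes 18 rose, with a median of 0.33, led by Bysl (0.65), Nolc1 (0.55), Polr1a (0.52) and Nop2 (0.51). Polr1a rose less in intact (0.25) than in ovariectomized livers (0.79), a difference that passed. Of 20 aminoacyl-tRNA synthetases 9 rose and 1, Cars (-0.35), fell. Of 34 proteasome subunits 16 rose. Psmd9, an assembly chaperone, went from 10.23 to 10.37, median 10.32, to 10.74 to 10.90, median 10.81, a rise of only 0.51 ± 0.04 that separated the treatments fully (limma adjusted p = 1.8e-06). Of 28 genes of endoplasmic reticulum stress 8 rose, 28.6% against 22.4% of all tested genes, among them the secreted stress protein Manf (0.94) and Creld2 (0.82). The median of the 28 was -0.02 in intact and 0.22 in ovariectomized livers, and in 13 of them the difference between states passed. Of 75 cytosolic ribosomal proteins 34 rose, but the count dropped to between 17 and 22 when 1 of 6 libraries was left out (each intact dexamethasone library, intact vehicle replicate 1 or 3, or ovariectomized dexamethasone replicate 1), to 21 with array weights and to 22 with a replicate block. Their median was 0.38 in intact and 0.04 in ovariectomized livers, and in 28 of the 75 the difference between states passed. Only 4 rose in each state, and 0 or 1 did when ovariectomized dexamethasone replicate 1 or 3 or ovariectomized vehicle replicate 1 or 3 was left out.

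Of 73 genes of oxidative phosphorylation 47 rose and none fell (1 was lower at an unadjusted limma p under 0.05), and 32 rose once the trend on transcript length and GC content was removed. Their median was 0.29 in intact and 0.07 in ovariectomized livers, and in 43 of the 73 the difference between states passed, so that this rise lay mostly in the intact livers. The complex I subunit Ndufa5 was at 10.71 to 11.23, median 10.98, with vehicle and 11.25 to 11.44, median 11.30, with dexamethasone, and it changed by 0.60 in intact and 0.11 in ovariectomized livers. Ndufa12 changed by 0.50 and 0.16, Cox5b, of complex IV, by 0.51 and 0.15, and Ndufa8 by 0.45 and 0.20. Both this list and the ribosomal proteins are of short transcripts, with medians of 1141 and 1059 nucleotides against 3339 over all genes. Over all genes, the difference ran with length at a Spearman's rho of -0.12 in the additive model, -0.25 in intact and 0.065 in ovariectomized livers (a description across genes of the same libraries). The deviation of a library from the mean of all 12 ran with length at a rho of 0.37, 0.11 and 0.32 in the 3 intact vehicle libraries and at -0.21 to 0.022 in the others, so the intact vehicle livers stood apart in this measure. The part of transcript length in these rises was not tested beyond the removal of that trend.

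Many genes of cell contacts and most of the listed ubiquitin ligases fell. Of 31 actin and adhesion genes 18 fell and 6 rose, with a median of -0.25. The rises were 19.4%, against 22.4% of all tested genes. In each state 10 fell and 4 rose, and the difference between states passed in 11. Desmoplakin Dsp fell from 10.35 to 11.09, median 10.83, to 9.48 to 9.89, median 9.61, the actin crosslinker Actn1 by 0.96 on the log2 scale, and the tight junction proteins Cldn2 (-0.92) and Ocln (-0.65) were lower too. The actins rose, Actb by 0.78 and Actg1 by 1.04 (56.7% of its words shared), as did Fam107a. Of 23 RING, TRIM and related ubiquitin ligases 18 fell and 3 rose, with a median of -0.38, and 13 fell and 2 rose in each state. Beside Rnf186 the falls included Rnf43 (-0.89) and Trim25 (-0.60), and the rises were Fbxo31 (1.26), Nedd4l (1.02), which targets sodium channels, and Mdm2 (0.13). Nedd4l went from 9.36 to 9.81 to 10.44 to 11.00.

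Of 24 genes of Wnt signalling and the pericentral zone, the hepatocytes around the central vein, 11 fell, 12 did not pass and the phosphatase Lhpp rose (0.46). The receptor Lgr5 fell from 7.62 to 7.97, median 7.83, to 5.87 to 7.51, median 6.45, and the feedback ligase Rnf43 from a median of 10.02 to 9.15. Glul (0.14), the zone's defining enzyme, did not pass, nor did Cyp2e1 (0.02). Of 16 periportal genes 5 rose and 5 fell, 31.25% each against 22.4% and 22.8% of all tested genes, with a median of -0.12. In each state 5 rose and 3 fell. The risers Sds, Ass1, Arg1, Cps1 and Apoa4 have been given above among their pathways.

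Across all tested genes the responses of the 2 states had a Pearson's r of 0.58 and a Spearman's rho of 0.47, a description over genes that share their libraries within each state, and the difference between states passed in 24.9%. Of the 5867 genes that passed the additive model, 2654 passed in each state, 1724 in intact livers only, 1188 in ovariectomized livers only and 301 in neither, and a pass in 1 state only is not shown to be a difference. An average over states favours genes that moved the same way in both, so these counts do not measure how far the states were alike. Of the 228 genes changed in each state and by at least 2-fold in the additive model, the 2 responses lay within 1.5-fold of each other in 174, and the difference between states passed in 37. The most even responses of at least 2-fold were those of Rnf152, Sgms2, Ifit1, the glucuronosyltransferase Ugt2b37 (1.29 and 1.30), the kinase Srms (1.29 and 1.31) and the sarcomere protein Myom1 (1.16 and 1.17). Srms went from 4.16 to 4.33 with vehicle to 4.88 to 6.03 with dexamethasone, and Myom1 from 5.31 to 5.48 to 6.16 to 7.05.

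An average over states hides 369 genes that passed in each state with opposite signs. Nrip1, a corepressor of nuclear receptors, fell in intact (-1.03) and rose in ovariectomized livers (0.64), so its additive difference was -0.19 and did not pass (limma adjusted p = 0.542). Btbd19 had 0.62 and -1.63, Csrnp1 0.64 and -0.60, Cep85l -0.84 and 0.61, the peptidase Xpnpep3 -0.93 and 0.60, and the noncoding Mir143hg 0.83 and -0.59. Nr4a1, an orphan nuclear receptor induced within minutes by many stimuli, passed the additive model (-2.30) although the dexamethasone livers, at 6.42 to 6.64, were like the intact vehicle livers. It was at 11.26, 10.30 and 11.87 in the ovariectomized vehicle livers and at 6.36 to 6.63 in the intact vehicle livers. Its additive value therefore belongs to the ovariectomized livers (-4.65) and not to the intact ones (0.04). Of the 23 immediate early genes, 13 had a difference between states that passed.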

How the data were processed

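RNA-seq libraries of liver total RNA (TRIzol, RNeasy columns) were made with an Illumina TruSeq kit and read on a NextSeq, per the labels' protocols. The submitters' processing notes name the mouse build mm9 and the tools DESeq, DESeq2, HTSeq, TopHat2 and Trim Galore, without versions. What the authors deposited is 1 table of normalized log2 values that rest on counts per gene, per the labels. The exact transformation, gene annotation and strand setting: not given in the sources used here. Overlapping antisense genes therefore cannot be told apart, and fold changes of low genes may be understated. The table held 24962 entries from -2.22 to 22.03, of which 6294 were listed at 0 in every library. All its 12 value columns were mapped to samples by name.

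For the 392 symbols with several entries the one with the highest mean was kept, and 12965 genes with a mean of at least 4 were tested. The additive model (treatment and gonadal state, 9 residual degrees of freedom) and the model of 4 group means (8, used for each state and for the difference between states) were fitted over all genes in limma 3.58.1 under R 4.3.3, with lmFit and then eBayes with a variance trend. P-values were adjusted by Benjamini and Hochberg over all tested genes at a threshold of 0.05. The fits were tested on simulated data with known changes. Summed levels are log2 of the sum of linear values over a list. Transcript lengths and shared 50-base words come from GENCODE vM21 (GRCm38), and 99.5% of the tested genes have a length. A gene is called uncertain where at least 20% of its words occur in other genes. Promoter sequences are RefSeq's (GRCm38.p6), available for 10328 of the tested genes. They are on another build than the deposited values and were matched by Entrez gene identifier. Python 3.11.15 drew the plots.

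The gene lists and the question were chosen with earlier results of these data known. Genes are named by a rule: the 20 largest rises and the 20 largest falls by the smaller of the responses in the 2 states, among genes that passed in each state without overlap (clone names passed over), up to 4 passing members of each list by size, 4 receptor genes, 6 opposite responses and 6 even ones. Genes given to complete a count, and members that did not pass, were chosen after their values were seen. Most list members are counted in their lists without being named, and some results are not reported here. Alternatives were the filter on the mean, a pseudocount, recentring, quantile normalization, other variance settings, array weights, another model, a replicate block, removal of length and GC trends, and each library left out.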

Additional observations from a re-analysis of the deposited data

Results flagged for a closer look

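The difference between the responses of the 2 gonadal states was tested for every named gene, and it passed in 66 of 250, or 26.4% (limma, model of 4 group means, adjusted p under 0.05), against 24.9% of all tested genes. Values are the response in ovariectomized minus that in intact livers, in log2 units, so a positive value is a higher response after ovariectomy. The reason for the differences was not tested.

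Among the largest common changes they were Lcn2 1.38, Saa1 1.15, Plin5 0.73, Gbp10 0.63, Abcd2 0.39, Efna3 -0.90 and Dusp6 -0.97. Receptor genes and targets gave Zbtb16 1.58, Fkbp5 1.01, Nr3c1 0.54, Dusp1 -1.39 and Sik1 -1.23. For Nr3c1 the fall lay in the intact livers. In amino acid and glucose metabolism they were Cps1 1.04, Slc43a1 1.04, Tdo2 0.61, Gpt2 0.61, Slc6a6 0.56, Slc1a5 -0.57, Irs1 -0.58, Ptprf 0.57, Ppp1r3b 0.92 and Ppp1r3g -3.12, a glycogen-targeting subunit of protein phosphatase 1. Lipid and conjugation genes gave Cidec 1.31, Acot4 0.92, Ppara 0.75, Insig2 0.65, Saa4 0.62, Apoc3 -0.40, Sult1d1 0.46 and Ugt1a1 1.46.

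In complement, coagulation and immune genes they were F5 0.77, F13b 0.69, Cfb 0.36, Tapbpl 0.44, Il1b -1.35, Il1a -0.99, Aif1 -0.48, Emr1 0.51, Cd163 0.89 and S100a9 -1.07. Immediate early and growth genes gave Nr4a1 -4.69, Nr4a2 -2.39, Gadd45a -0.91, Fgfr2 -0.50, Ghr 0.34, Klf16 -0.68, Klf12 0.62, Klf3 0.64 and Tsku 1.65. The stress, redox and matrix genes were Ern1 1.13, Gpx3 -0.73, Fn1 0.73 and Eng -0.38. Protein and energy genes gave Polr1a 0.54, Rps4l -0.80, Ndufa5 -0.50, Cox5b -0.36, Ndufa12 -0.33, Ndufa8 -0.26 and Psmd4 -0.23. The genes chosen for opposite responses gave Nrip1 1.66, Xpnpep3 1.53, Cep85l 1.46, Csrnp1 -1.24, Mir143hg -1.42 and Btbd19 -2.26, and their choice fixes that they differ.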

How the results depend on the processing

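No count over all genes and no named gene changed direction under the alternatives run. The 2910 genes that rose and 2957 that fell became 3001 risers with no filter on the mean, 2673 with a mean of at least 6, 2783 and 3110 after recentring, and 3476 and 3628 in the model of 4 group means. Leaving out 1 library gave 2592 to 2835 rises and 2654 to 2883 falls, and 1013 to 1268 rises and 1116 to 1416 falls in each state. With array weights 1958 genes rose in each state in place of 1285, and 1964 fell in place of 1369. The cause was not tested. The labels do not say whether the same replicate numbers pair the libraries. Deviations from the group means correlated at 0.033 on average for the same number (-0.23 to 0.40), and at -0.47 to 0.42 for unlike numbers. These values cannot exclude a pairing of some libraries. A fit with a replicate block gave 2685 rises and 2768 falls, and 1231 and 1367 in each state. Of 5730 pairs of a named gene and an alternative, 5683 kept their direction and side of the threshold. The other pairs concern 7 genes that missed the threshold under some (Cyp3a16, Trf, Trib3, Klf3, S100a8, S100a9, Slc5a1) and Nrip1 and Btbd19, which passed in the model of 4 group means. The 40 largest changes held under every alternative run, which their choice by size, by a pass in each state and by lack of overlap favours. The number of libraries limits the precision, and depth is unknown.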
